A study of Mus musculus with 12 samples.

Results

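The genes examined here build and sulphate glycosaminoglycan chains, the long sugar chains that proteoglycans carry. A list of 42 symbols, which covers the linkage region, chain polymerisation, sulphation and the supply of precursors, was matched exactly to the gene symbols of the array, which number 34509. Of the 42 members, 38 had a probe under their symbol and 31 had a probe that was detected on at least 4 of the 12 arrays, which was the requirement for a test. The RNA came from femoral head cartilage of 21-day-old TS-4/5∆cat mice, which make ADAMTS-4 and ADAMTS-5 without their catalytic domains. All groups carried both deletions, so untreated explants are untreated TS-4/5∆cat explants and not wildtype ones. Explants were left untreated, given 10 ng/mL IL-1α or given 10 µM retinoic acid for 3 days, and 4 arrays were made per treatment. Of these 4 arrays, 2 were of the Donut line in batch 1 and 2 of the Gertrude line in batch 2, so that line and batch cannot be told apart. The labels call the arrays replicates but do not tie each to its own animals, and p-values measure the spread between these arrays, which may be partly technical.

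In cartilage, chondroitin sulphate and keratan sulphate chains on aggrecan hold water by their dense negative charge, and heparan sulphate chains on perlecan, syndecans and glypicans bind growth factors. The chains of chondroitin and heparan sulphate start with xylose on a serine of the core protein and continue through galactose and glucuronic acid. The next amino sugar decides which kind is made. Sulphotransferases then take sulphate from the donor PAPS and place it at set positions along the growing chain. IL-1α and retinoic acid are agents long used to make cartilage explants lose aggrecan.

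Levels are given as log2 of the background-corrected, quantile-normalised intensity, so that a difference of 1 is a doubling, and a level is compared only between arrays of the same probe. Between the 2 arrays of a treatment in a batch the correlation over the probes was 0.983 to 0.995, and between batches within a treatment it was 0.868 to 0.902. More probes were detected in batch 2 (16732 to 19485) than in batch 1 (13786 to 14965). The RNA is that of whole explants, where fewer cells of a type and less RNA per cell cannot be told apart. The chondrocyte markers fell with treatment, with 10 of 10 tested markers lower after retinoic acid and 8 of 10 lower after IL-1α, at median differences of -2.57 and -0.90. The part of this fall in the results for the chain enzymes was not tested.

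With retinoic acid, 10 of the 31 tested members rose and 12 fell against untreated explants, at an adjusted p under 0.05 from limma over all probes tested. In the same comparison 18.6% of all 14317 tested genes were higher and 18.1% were lower. With IL-1α, 4 members rose and 13 fell, against 15.1% higher and 15.0% lower among all genes. Between the treatments, 8 members were higher and 10 lower with retinoic acid than with IL-1α, where 16.1% of all genes were higher and 16.4% lower. The median difference of the members was -0.11 for retinoic acid, -0.25 for IL-1α and 0.06 between the treatments, and that of all genes was 0.01, 0.01 and -0.03. Of these 57 calls, 44 passed in each of 12 further fits that left out 1 array, and the other 13 lay in 10 members that are named below. The count of members higher with retinoic acid was 6 without retinoic acid replicate 2 of batch 2, and that of members higher with IL-1α was 2 without replicate 1 of the untreated arrays of batch 1, or without replicate 1 of the IL-1α arrays of either batch. Both treatments were set against the same 4 untreated arrays.

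**Figure D1:**
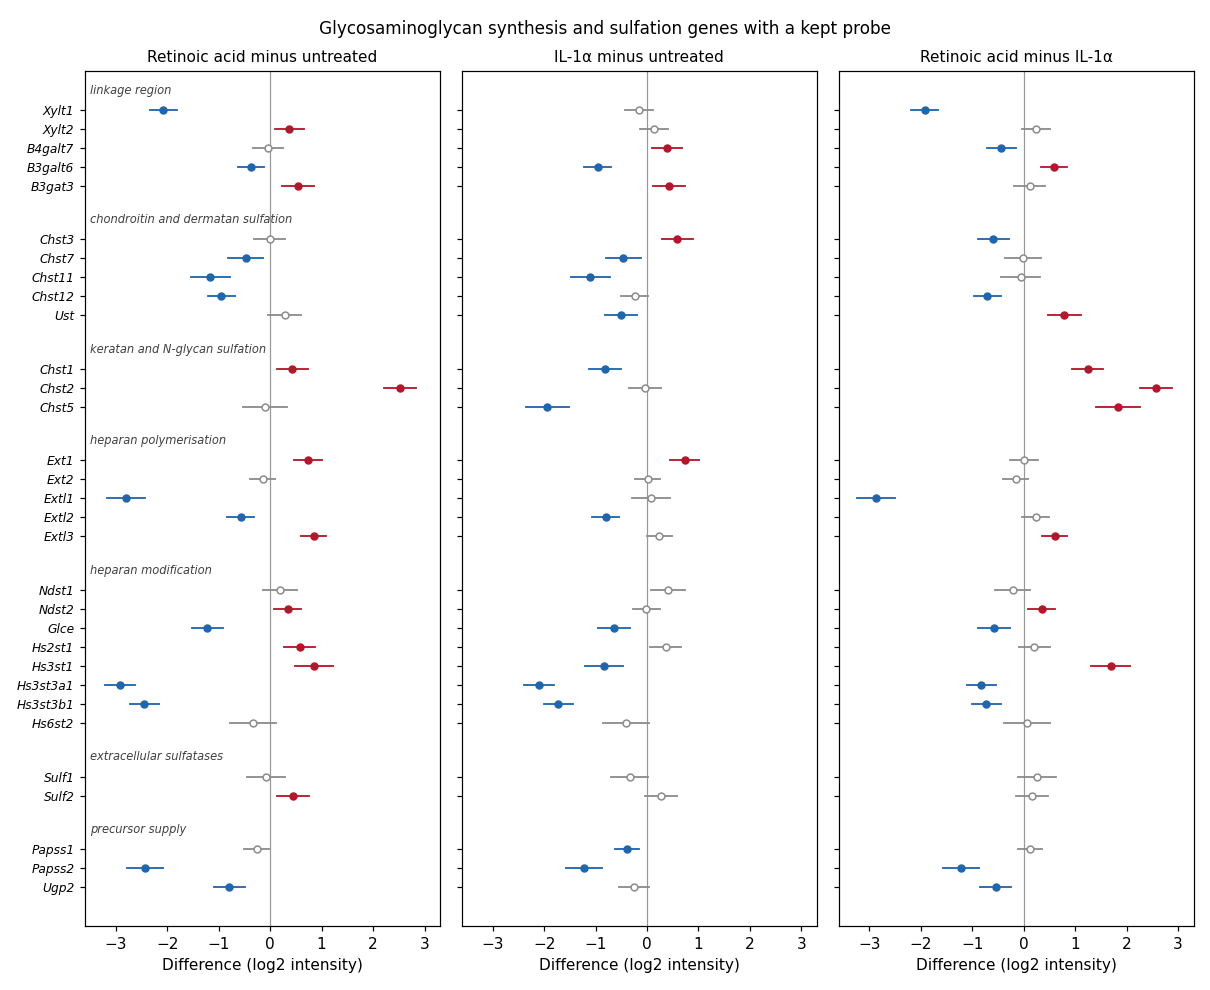
Difference of each of the 31 tested members in the 3 comparisons, on the log2 intensity scale, by step of the pathway. Points are differences from limma with 95% confidence intervals as lines, filled red where higher and blue where lower at an adjusted p under 0.05, and hollow grey otherwise. Against untreated explants, the longest falls are those of Hs3st3a1 (-2.92), Extl1 (-2.80), Hs3st3b1 (-2.45) and Papss2 (-2.44) and the longest rise is that of Chst2 (2.53), all with retinoic acid.

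Among the 3 tested genes of precursor supply, Papss2 and Ugp2 fell with retinoic acid and Papss2 and Papss1 with IL-1α, and Papss2 moved furthest. Papss2 and its relative Papss1 make PAPS, the sulphate donor of every sulphotransferase described here, and loss of Papss2 in mice leaves cartilage undersulphated. The Papss2 probe ILMN_2466809 read 12.65, 12.19, 11.84 and 12.55 on the untreated arrays (batch 1 first), 10.92, 10.81, 11.25 and 11.38 with IL-1α, and 10.05, 9.82, 9.71 and 9.90 with retinoic acid. Every IL-1α array lay below every untreated array, and every retinoic acid array below every IL-1α array. Retinoic acid lowered Papss2 5.42-fold, a difference of -2.44 ± 0.16 (SE, n = 4 arrays per group, adjusted p = 1.25e-07 from limma). IL-1α lowered it 2.33-fold (-1.22 ± 0.16, adjusted p = 0.000121 from limma), and the step from IL-1α to retinoic acid was as long (-1.22, adjusted p = 6.8e-05 from limma). The two-sided exact permutation test gave p = 0.0286 for each of the 3 comparisons, the smallest that 4 against 4 arrays allow. Another Papss2 probe, undetected on 2 of the 4 retinoic acid arrays, differed by -2.57 with retinoic acid and by -0.78 with IL-1α, and both differences passed the test. The IL-1α difference of that probe was -0.16 in batch 1 and -1.40 in batch 2, and the batches differed (adjusted p = 0.00583 from limma). Its IL-1α and untreated arrays overlapped.

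RefSeq (build GRCm38.p6) gives Papss2 more than 1 transcription start, and the 250 bases before each of 2 starts are shown because Papss2 fell with both treatments and the windows differ in base composition. The first window (chr19:32595465-32595714, plus strand) is 67.6% G and C with 24 CpG dinucleotides, and the second (chr19:32619755-32620004, plus strand) is 43.2% G and C with 1. Capitals mark matches, on either strand, to the nuclear receptor half-site AGGTCA, the SOX core AACAAT and the TATA box TATAAA. In the same order, the motifs were found in 14.0%, 9.42%, 12.4% and 1.41% of all 32851 windows of the same length in the table.
Papss2 start 1: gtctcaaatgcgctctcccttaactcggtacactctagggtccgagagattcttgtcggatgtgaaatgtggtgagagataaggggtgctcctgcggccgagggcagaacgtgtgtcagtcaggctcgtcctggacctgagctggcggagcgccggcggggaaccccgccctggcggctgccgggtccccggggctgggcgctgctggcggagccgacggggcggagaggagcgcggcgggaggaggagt
Papss2 start 2: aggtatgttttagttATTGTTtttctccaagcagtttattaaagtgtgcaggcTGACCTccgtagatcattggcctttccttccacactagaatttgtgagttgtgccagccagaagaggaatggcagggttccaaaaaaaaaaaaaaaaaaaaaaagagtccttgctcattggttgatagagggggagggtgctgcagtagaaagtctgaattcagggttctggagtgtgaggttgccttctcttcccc
The first window held none of these motifs. The second held 1 SOX core and 1 nuclear receptor half-site, both on the reverse strand and not overlapping. The arrays do not tell which start was used, and a match describes letters and not a bound site.

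Papss1 read 8.80 to 9.30 on untreated arrays, 8.48 to 8.84 with IL-1α and 8.52 to 8.97 with retinoic acid. It was lower with IL-1α (-0.39, adjusted p = 0.0186 from limma) and not called with retinoic acid (-0.27, adjusted p = 0.0806). The IL-1α call was lost, at values of -0.46 to -0.35 over the 12 fits, without untreated replicate 1 of batch 1, either IL-1α array of batch 2 or untreated replicate 2 of batch 2. Ugp2, which makes UDP-glucose, fell with retinoic acid (-0.80, adjusted p = 0.000577) and was also lower with retinoic acid than with IL-1α (-0.54, adjusted p = 0.0088). Its IL-1α difference was -0.25, with a 95% interval of -0.55 to 0.05. Ugdh, which oxidises UDP-glucose to UDP-glucuronic acid, had a probe that was detected on none of the 12 arrays.

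The linkage region showed opposite results for the 2 xylosyltransferases, which attach the first sugar. Xylt1 (probe ILMN_2507331) read 7.20, 7.0, 6.53 and 6.73 on untreated arrays and 6.88, 6.90, 6.62 and 6.44 with IL-1α, and it was detected on all 8. With retinoic acid it read 4.91, 4.79, 4.79 and 4.63 and was undetected on 4 of 4 arrays. Xylt1 was therefore at least 3.20-fold higher in untreated than in retinoic acid explants, and IL-1α explants exceeded retinoic acid explants at least 2.87-fold. For such a bound the undetected group was set, array by array, to the dimmest signal called detected or to its own reading where that was brighter. The adjusted p-values from limma were 4.25e-08 and 7.97e-08. Between IL-1α and untreated explants the difference was -0.16, with a 95% interval of -0.42 to 0.11.

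Xylt2 was higher with retinoic acid (0.37, adjusted p = 0.0359 from limma). Its levels were 7.31 to 8.48 untreated and 7.64 to 8.83 with retinoic acid, and the groups overlapped, with batch 2 below batch 1 in every treatment. The call was lost in 7 of the 12 fits with 1 array left out, those without any untreated array, either retinoic acid array of batch 1 or retinoic acid replicate 2 of batch 2, with values of 0.30 to 0.46. B3gat3, which adds the glucuronic acid that ends the linker, rose with retinoic acid (0.54, adjusted p = 0.00908) and with IL-1α (0.43, adjusted p = 0.0378). The IL-1α call of B3gat3 was lost without untreated replicate 1 or IL-1α replicate 1 of batch 1, without either IL-1α array of batch 2, or without untreated replicate 2 of batch 2, at values of 0.30 to 0.54.

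The galactosyltransferases of the linker gave less settled values. B4galt7, the first of them, was higher with IL-1α than untreated (0.39, adjusted p = 0.0424 from limma) and lower with retinoic acid than with IL-1α (-0.43, adjusted p = 0.024). Its untreated arrays lay between 7.89 and 7.92 and its IL-1α arrays between 8.10 and 8.53, without overlap. The first of these calls of B4galt7 was lost without any of the 4 IL-1α arrays, either untreated array of batch 1 or retinoic acid replicate 1 of batch 1 (0.30 to 0.48). The second was lost without retinoic acid replicate 1 of batch 1, either retinoic acid array of batch 2, either IL-1α array of batch 1 or IL-1α replicate 2 of batch 2 (-0.53 to -0.35).

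B3galt6, the second galactosyltransferase, fell with IL-1α (-0.96, adjusted p = 7.11e-05 from limma), from 8.0 to 8.94 untreated to 7.16 to 7.84. Another B3galt6 probe, detected on all 12 arrays, differed by only 0.05 with IL-1α (95% interval -0.20 to 0.31), so the probes of this gene disagree. The smaller retinoic acid difference of the first B3galt6 probe (-0.38, adjusted p = 0.0239) was lost without either untreated array of batch 1, retinoic acid replicate 2 of either batch or untreated replicate 2 of batch 2, at values of -0.46 to -0.33.

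**Figure D2:**
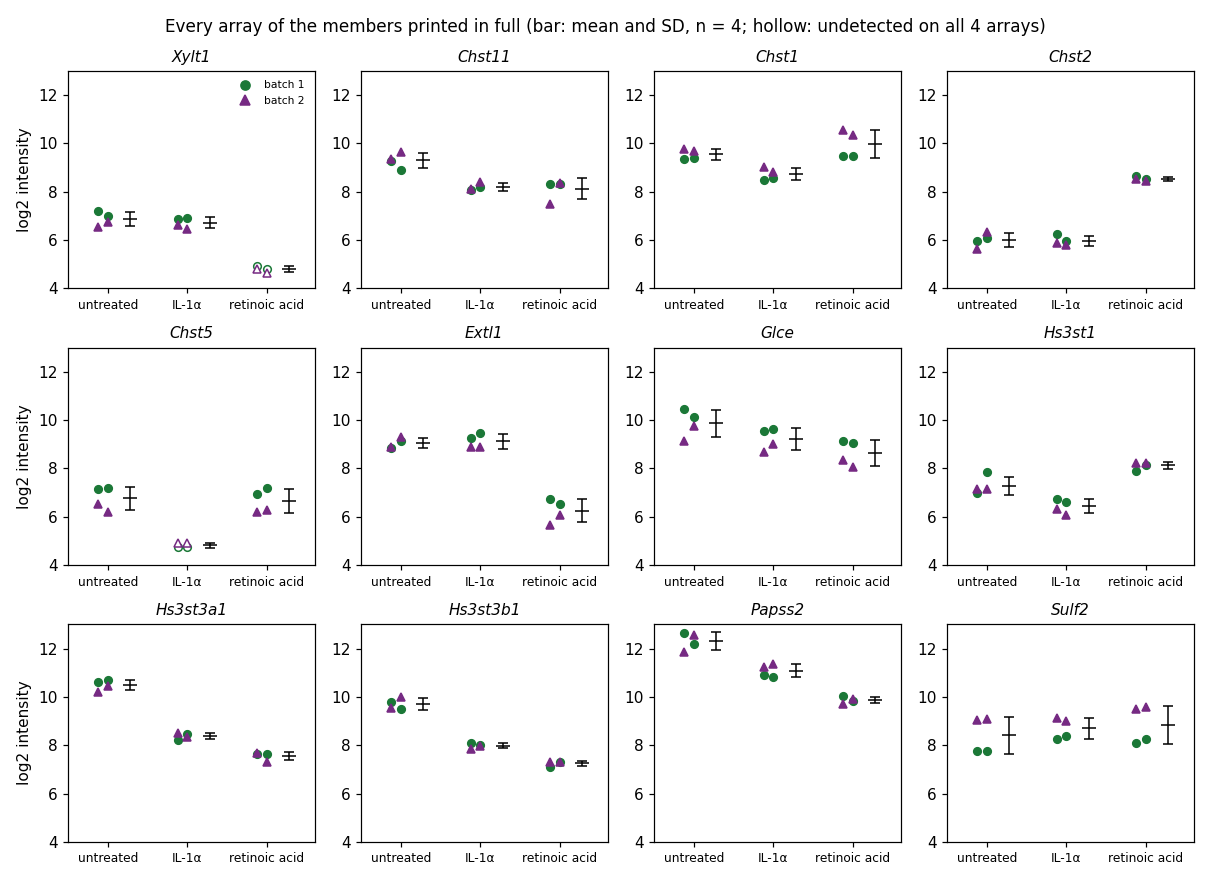
Log2 intensity on every array for the 12 members printed in full, by treatment. Circles are batch 1 and triangles batch 2, hollow symbols stand for groups in which the probe was undetected on all 4 arrays, and bars give the mean and SD (n = 4). Papss2, Hs3st3a1 and Hs3st3b1 step down from untreated through IL-1α to retinoic acid, Chst2 lies between 8.45 and 8.63 with retinoic acid and at 6.32 or below otherwise, and Sulf2 is split by batch more than by treatment.

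Chondroitin polymerisation could not be read under the member symbols, since Csgalnact1, Chsy1 and Chpf have no probe of that name. The RefSeq synonyms led to an older symbol for Csgalnact1 and for Chpf, and these matches were made after the data were seen. Csgalnact1, which adds the first N-acetylgalactosamine and so commits a chain to chondroitin, read 6.89, 7.08, 9.31 and 9.73 on untreated arrays, 6.24, 6.66, 8.34 and 8.32 with IL-1α, and 5.52, 5.46, 8.29 and 8.33 with retinoic acid. Batch 2 was brighter in every treatment, and within each batch both treatments lay below the untreated arrays. The differences of Csgalnact1 were -1.35 for retinoic acid (adjusted p = 7.27e-05 from limma) and -0.86 for IL-1α (adjusted p = 0.00343). Its difference between the treatments was -0.96 in batch 1 and -0.02 in batch 2, and the batches differed (adjusted p = 0.0269 from limma). Chpf, a partner needed for chondroitin polymerisation, was lower with IL-1α (-0.75, adjusted p = 0.000494), and its retinoic acid difference was -0.25 (95% interval -0.50 to 0.01).

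Of the 5 tested chondroitin sulphotransferases, 3 fell with retinoic acid, and 3 fell and 1 rose with IL-1α. Among all genes, 18.1% were lower with retinoic acid, and 15.0% lower and 15.1% higher with IL-1α. The counted falls of Chst7 with both treatments and of Ust with IL-1α were lost in some fits with 1 array left out. Chst11, the main 4-O-sulphotransferase of cartilage chondroitin, read 9.27, 8.90, 9.33 and 9.64 on untreated arrays (probe ILMN_1223070). With IL-1α it read 8.05, 8.19, 8.11 and 8.40, and with retinoic acid 8.33, 8.33, 7.48 and 8.35. All 8 treated arrays lay below the 4 untreated arrays, and the treated groups overlapped each other. Chst11 was 2.24-fold lower with retinoic acid (-1.17 ± 0.17 SE, n = 4 arrays per group, adjusted p = 0.000181 from limma) and 2.15-fold lower with IL-1α (-1.10 ± 0.17, adjusted p = 0.000487). Between the treatments it differed by -0.06, with a 95% interval of -0.44 to 0.32. Another Chst11 probe differed by -1.53 and -1.37 in the same order, both past the test, but it was undetected on 2 of 4 arrays of each treatment (5.10 to 5.41, all in batch 1), so that these sizes are limited by the background.

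Chst12, which sulphates the same position, fell with retinoic acid (-0.95, adjusted p = 5.33e-05 from limma), from 9.03 to 9.58 untreated to 8.26 to 8.39, without overlap. Its IL-1α difference was -0.24 (95% interval -0.51 to 0.02), and it was lower with retinoic acid than with IL-1α (-0.71, adjusted p = 0.000644). Chst3, a 6-O-sulphotransferase of chondroitin, was higher with IL-1α (0.59, adjusted p = 0.00686 from limma), and its retinoic acid difference was -0.01 (95% interval -0.31 to 0.29). Chst3 was dim, between 4.92 and 5.54 untreated and between 5.58 and 5.94 with IL-1α, and was detected on 2 of 4 untreated, 4 of 4 IL-1α and 2 of 4 retinoic acid arrays. The difference between the treatments was itself called for Chst3 (-0.59, adjusted p = 0.00511). Both Chst3 calls were lost in batch 2 alone (0.40 and -0.32) and when arrays were scaled to one median.

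Chst7, another 6-O-sulphotransferase, was lower with retinoic acid (-0.48, adjusted p = 0.0315 from limma) and with IL-1α (-0.46, adjusted p = 0.0436). It was detected on 7 of the 12 arrays. The retinoic acid call of Chst7 was lost without untreated or retinoic acid replicate 2 of batch 1 or without any untreated or retinoic acid array of batch 2 (-0.68 to -0.33). The IL-1α call was lost in 8 of the 12 fits, those without any IL-1α array, untreated replicate 2 of batch 1, either untreated array of batch 2 or retinoic acid replicate 1 of batch 2 (-0.66 to -0.32). Ust, which sulphates the uronic acid, was lower with IL-1α (-0.50, adjusted p = 0.0216) and higher under retinoic acid than under IL-1α (0.78, adjusted p = 0.00119). The first Ust call was lost without either untreated array of batch 1, IL-1α replicate 1 of batch 1 or IL-1α replicate 2 of batch 2 (-0.63 to -0.37). Dse, the epimerase that makes dermatan sulphate, had a probe detected on none of the 12 arrays.

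The 3 tested sulphotransferases of keratan sulphate and N-glycans were all higher under retinoic acid than under IL-1α, where 16.1% of all genes were higher. Chst2, which sulphates N-acetylglucosamine, read 5.97, 6.07, 5.62 and 6.32 on untreated arrays and 6.25, 5.94, 5.87 and 5.79 with IL-1α (probe ILMN_2687165). With retinoic acid it read 8.63, 8.52, 8.51 and 8.45. The retinoic acid arrays lay above all 8 other arrays, and the untreated and IL-1α arrays overlapped. Chst2 rose 5.78-fold with retinoic acid (2.53 ± 0.14 SE, n = 4 arrays per group, adjusted p = 3.65e-08 from limma), by 2.56 in batch 1 and 2.51 in batch 2. Its IL-1α difference was -0.03, with a 95% interval of -0.35 to 0.28.

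Chst5 acts on the same sugar of keratan sulphate and was called in both comparisons that involve IL-1α. It read 7.13, 7.18, 6.53 and 6.18 untreated and 6.92, 7.20, 6.19 and 6.28 with retinoic acid (probe ILMN_2665754). With IL-1α it read 4.75, 4.72, 4.90 and 4.90 and was undetected on 4 of 4 arrays. Chst5 was at least 2.83-fold higher in untreated than in IL-1α explants (adjusted p = 1.38e-05 from limma) and at least 2.63-fold higher under retinoic acid than under IL-1α (adjusted p = 1.02e-05). The difference between retinoic acid and untreated explants was -0.11, with a 95% interval of -0.53 to 0.32.

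Chst1, the galactose sulphotransferase of keratan sulphate, read 9.33, 9.38, 9.77 and 9.66 untreated, 8.48, 8.55, 9.02 and 8.82 with IL-1α, and 9.48, 9.46, 10.55 and 10.35 with retinoic acid (probe ILMN_1255385). The IL-1α arrays lay below all others, and the untreated and retinoic acid arrays overlapped. Chst1 fell with IL-1α (-0.82 ± 0.14 SE, n = 4 arrays per group, adjusted p = 0.000883 from limma) and was 2.37-fold higher under retinoic acid than under IL-1α (1.24, adjusted p = 1.64e-05). Its rise with retinoic acid over untreated explants (0.43, adjusted p = 0.031) was 0.12 in batch 1 and 0.73 in batch 2, and it was lost on omitting any of the 4 untreated or retinoic acid arrays of batch 2, at values of 0.32 to 0.53. Chst8, which acts on N-glycans of hormones, had a probe detected on none of the arrays.

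In heparan polymerisation Extl1 stood apart from the rest of its family. Extl1 is an exostosin-like transferase that adds N-acetylglucosamine. It read 8.86, 9.14, 8.90 and 9.28 untreated, 9.25, 9.46, 8.86 and 8.88 with IL-1α, and 6.71, 6.54, 5.65 and 6.08 with retinoic acid (probe ILMN_1215877). The retinoic acid arrays lay below all 8 others, and the IL-1α and untreated arrays overlapped. Extl1 fell 6.95-fold with retinoic acid (-2.80 ± 0.17 SE, n = 4 arrays per group, adjusted p = 6.28e-08 from limma), and its IL-1α difference was 0.07 (95% interval -0.30 to 0.44).

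Ext1 and Ext2 form the polymerase that lengthens heparan sulphate. Ext1 rose by the same amount with retinoic acid (0.73, adjusted p = 0.000599 from limma) and with IL-1α (0.73, adjusted p = 0.00101), and the difference between the treatments was 0.00 (95% interval -0.27 to 0.28). Its levels overlapped between groups, at 9.53 to 10.41 untreated, 10.17 to 11.07 with IL-1α and 10.04 to 11.21 with retinoic acid. Ext2 was not called in any comparison. Its probe was undetected on all 6 arrays of batch 1, between 4.48 and 4.76, and detected on all 6 of batch 2, between 6.99 and 7.33. The values of Ext2 therefore describe only batch 2, which is also the Gertrude line.

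Extl3, which starts the heparan chain, rose with retinoic acid (0.84, adjusted p = 7.29e-05 from limma), with untreated arrays at 10.24 to 10.88 and retinoic acid arrays at 11.31 to 11.69. Its IL-1α difference was 0.24 (adjusted p = 0.13 from limma), and the retinoic acid level was above that of IL-1α (0.60, adjusted p = 0.00117). Extl2, which transfers amino sugars to the linker, fell with IL-1α (-0.81, adjusted p = 0.000406) and with retinoic acid (-0.58, adjusted p = 0.00276). All 8 treated arrays of Extl2, at 9.31 to 9.90, lay below the untreated arrays at 10.20 to 10.35. When arrays were scaled to one median in place of quantile normalisation, the retinoic acid call of Extl2 was lost (-0.35, adjusted p = 0.0855).

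Among the heparan modification enzymes, both 3-O-sulphotransferases of the third type fell and Hs3st1 moved in opposite directions with the 2 treatments. Enzymes of this family add the last and rarest sulphate of a heparan chain, and Hs3st1 is known for the sequence that binds antithrombin. Hs3st3a1 (probe ILMN_2627193) read 10.60, 10.68, 10.21 and 10.46 untreated, 8.22, 8.48, 8.50 and 8.35 with IL-1α, and 7.63, 7.63, 7.67 and 7.32 with retinoic acid. Hs3st3b1 (probe ILMN_1251178) read 9.78, 9.50, 9.55 and 10.00 untreated, 8.11, 8.03, 7.85 and 7.95 with IL-1α, and 7.11, 7.30, 7.31 and 7.32 with retinoic acid. In both genes the 3 groups did not overlap, and the order was untreated, IL-1α, retinoic acid.

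Retinoic acid lowered Hs3st3a1 7.59-fold (-2.92 ± 0.13 SE, n = 4 arrays per group, adjusted p = 4.12e-09 from limma) and Hs3st3b1 5.45-fold (-2.45 ± 0.13, adjusted p = 1.99e-08). IL-1α lowered Hs3st3a1 4.28-fold (-2.10, adjusted p = 2.21e-07) and Hs3st3b1 3.3-fold (-1.72, adjusted p = 1.09e-06). Retinoic acid also lay below IL-1α, at -0.82 for Hs3st3a1 (adjusted p = 0.000351) and -0.72 for Hs3st3b1 (adjusted p = 0.000826). With all kept probes of a gene averaged, both of these last calls were lost, at -0.46 for Hs3st3a1 and -0.32 for Hs3st3b1. The average takes in a dimmer probe of each gene, which was undetected on several treated arrays. The 2 genes are near-identical over their catalytic part, and whether a probe reads both was not tested.

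A further probe of each gene also fell with both treatments, but its size differed between the batches. The Hs3st3a1 probe ILMN_1238617 read 8.56 and 8.34 on the untreated arrays of batch 1 and 5.54 and 5.91 on those of batch 2, and the Hs3st3b1 probe ILMN_2491319 read 7.90 and 7.82, and 5.24 and 4.95. On the treated arrays of batch 2 these probes read 4.80 to 4.88 and 4.58 to 4.67 and were undetected. The batch 2 sizes are therefore limited by the background. For the probes printed above, the batch difference was not called in either gene (adjusted p = 0.804 for Hs3st3a1 and 0.986 for Hs3st3b1 with retinoic acid, from limma).

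Hs3st3a1 and Hs3st3b1 lie on chromosome 11 in RefSeq (GRCm38.p6), and the 250 bases before their starts are shown because the 2 genes fell together. They are chr11:64435082-64435331 on the plus strand and chr11:63922285-63922534 on the minus strand, with 20 and 17 CpG dinucleotides and 64.0% and 62.4% G and C. Neither window held any of the motifs named for Papss2, so no letters are in capitals.
Hs3st3a1: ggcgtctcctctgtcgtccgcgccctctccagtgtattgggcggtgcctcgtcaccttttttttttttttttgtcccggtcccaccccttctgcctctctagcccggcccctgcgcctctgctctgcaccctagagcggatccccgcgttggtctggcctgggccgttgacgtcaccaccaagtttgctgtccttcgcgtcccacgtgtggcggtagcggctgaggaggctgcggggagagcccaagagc
Hs3st3b1: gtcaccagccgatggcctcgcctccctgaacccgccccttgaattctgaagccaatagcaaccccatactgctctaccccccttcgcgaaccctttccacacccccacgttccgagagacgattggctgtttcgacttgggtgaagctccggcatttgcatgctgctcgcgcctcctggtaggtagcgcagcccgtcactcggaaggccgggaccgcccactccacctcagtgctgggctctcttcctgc
Windows of 35 of the 42 members were used here, 42 in all, with a median of 65.2% G and C against 52.4% over all windows. Of these 42, the nuclear receptor half-site was in 3, the SOX core in 2, the TATA box in 2 and the NF-kB motif in 1. No window was used for Xylt1, Csgalnact1, Ext1, Extl3, Ndst1, Ndst4 and Sulf1.

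Hs3st1 (probe ILMN_1253182) read 6.98, 7.84, 7.13 and 7.13 untreated, 6.72, 6.61, 6.33 and 6.09 with IL-1α, and 7.91, 8.14, 8.24 and 8.21 with retinoic acid. The IL-1α arrays were the lowest and the retinoic acid arrays the highest, without overlap, and the nearest approach was that of untreated replicate 2 of batch 1 (7.84) to the lowest retinoic acid array (7.91). Hs3st1 rose with retinoic acid (0.85 ± 0.17 SE, n = 4 arrays per group, adjusted p = 0.00171 from limma) and fell with IL-1α (-0.84 ± 0.17, adjusted p = 0.00299). The treatments differed 3.22-fold (1.69, adjusted p = 6.46e-06). Of 5 endothelial markers, 3 were lower with IL-1α than untreated, where 15.0% of all genes were lower. Under retinoic acid 3 were higher than under IL-1α, where 16.1% of all genes were higher. The summed level of the 5 markers was 10.77 to 11.13 untreated, 9.69 to 10.20 with IL-1α and 10.84 to 11.10 with retinoic acid. Their part in the values of Hs3st1, Chst1 and Chst5 was not tested.

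Glce, the epimerase that turns glucuronic into iduronic acid, read 10.45, 10.13, 9.13 and 9.75 untreated, 9.56, 9.64, 8.67 and 9.01 with IL-1α, and 9.14, 9.03, 8.33 and 8.07 with retinoic acid (probe ILMN_2433946). Batch 2 read below batch 1 in every treatment, and the highest retinoic acid array just overlapped the lowest untreated one. Within each batch the order was untreated, IL-1α, retinoic acid. Glce fell 2.33-fold with retinoic acid (-1.22 ± 0.14 SE, n = 4 arrays per group, adjusted p = 2.14e-05 from limma), by -1.21 in batch 1 and -1.24 in batch 2. It fell by 0.64 on the log2 scale with IL-1α (-0.64, adjusted p = 0.00465). The two-sided exact permutation test for Glce, which takes no account of batch, gave p = 0.0571 for retinoic acid and p = 0.114 for IL-1α.

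Hs2st1, which sulphates iduronic acid, rose with retinoic acid (0.57, adjusted p = 0.00539 from limma), and its IL-1α difference was 0.36 (adjusted p = 0.0624). Ndst2, which replaces acetyl by sulphate on glucosamine, was higher with retinoic acid than untreated (0.34, adjusted p = 0.0417) and than IL-1α (0.35, adjusted p = 0.0401). The first Ndst2 call passed in only 3 of 12 fits, those without untreated replicate 1 of batch 2 or IL-1α replicate 2 of either batch (0.28 to 0.40 over all 12). The second passed in 4, those without untreated replicate 1 of batch 1, either untreated array of batch 2 or IL-1α replicate 2 of batch 2 (0.29 to 0.42). Ndst1 and Hs6st2 were called in no comparison. Their largest differences were 0.41 for Ndst1 with IL-1α (adjusted p = 0.0665) and -0.40 for Hs6st2 with IL-1α (adjusted p = 0.165), and Hs6st2 was detected on 8 of the 12 arrays. Ndst3, Ndst4, Hs3st2 and Hs6st3 had probes detected on none of the 12 arrays, and Hs6st1 had no probe under its symbol.

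The extracellular sulphatases Sulf1 and Sulf2 remove 6-O-sulphate from finished heparan chains. Sulf2 read 7.75, 7.75, 9.06 and 9.08 untreated, 8.25, 8.40, 9.13 and 8.99 with IL-1α, and 8.08, 8.25, 9.49 and 9.56 with retinoic acid (probe ILMN_1239293). All 6 arrays of batch 2 lay above all 6 of batch 1, and within each batch the retinoic acid arrays were above the untreated ones. The retinoic acid difference of Sulf2 was 0.43 ± 0.14 (SE, n = 4 arrays per group, adjusted p = 0.032 from limma), and omitting any of the 4 untreated arrays of batch 1 or retinoic acid arrays of batch 2 lost the call (0.36 to 0.50). Sulf1 differed by -0.09 with retinoic acid (95% interval -0.46 to 0.28) and by -0.34 with IL-1α (-0.71 to 0.03), and neither passed the test.

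The treatment effects of the members were then compared between the batches. The sign was shared by both batches for all 22 retinoic acid calls, all 17 IL-1α calls and all 18 calls between the treatments. Because a call was made over both batches, a shared sign is largely built into this count, and it is no separate test of agreement. The effect differed between batches for 1 member in each comparison, where 2.70%, 4.57% and 8.91% of all genes did. Hs6st2 differed by 0.24 in batch 1 and -0.93 in batch 2 for retinoic acid against untreated explants (adjusted p = 0.0361 from limma). Chst5 fell with IL-1α by more in batch 1 (-2.42) than in batch 2 (-1.45, adjusted p of the difference = 0.0219 from limma), and this value is limited by the background because the IL-1α arrays were undetected in both batches.

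**Figure D3:**
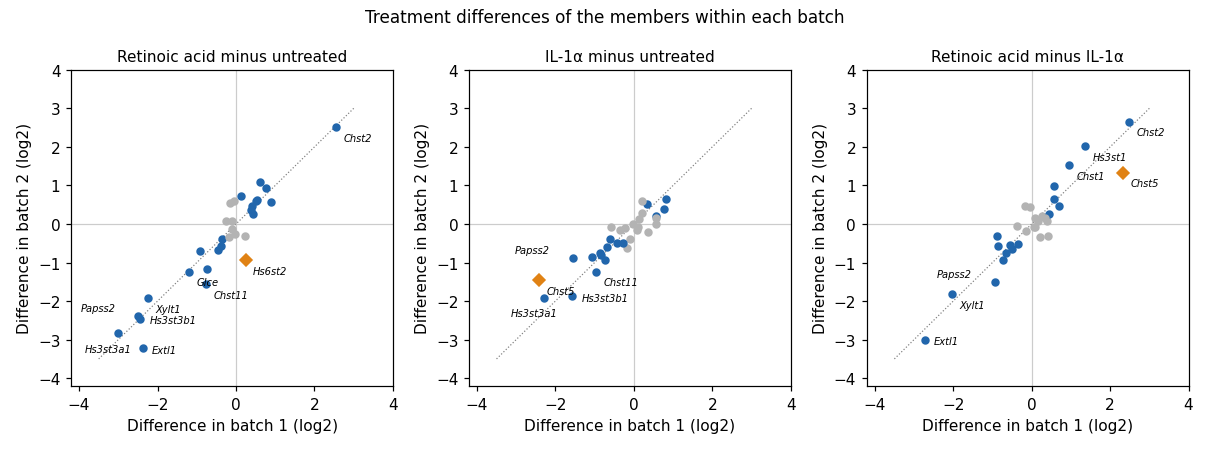
Treatment difference of each of the 31 tested members in batch 1 (x axis) and batch 2 (y axis), in log2 units. Blue points were called over both batches, grey points were not, and orange diamonds mark the 1 member per comparison whose effect differed between the batches; the dotted line marks equal differences. Every blue point has the same sign on both axes, which a call over both batches favours.

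Further genes outside the 42 members were taken from lists, with Chst15, Chsy3 and Fam20b read under older symbols of the array. Of 6 tested genes in a list of other enzymes, not all of which build these chains, 1 rose and 3 fell with retinoic acid, and 3 fell with IL-1α. Among all genes, 18.6% were higher and 18.1% lower with retinoic acid, and 15.0% were lower with IL-1α. Chst15, which adds a further sulphate to chondroitin already sulphated at the 4-O position, rose with retinoic acid (1.62, adjusted p = 6.83e-07 from limma) and differed by 0.02 with IL-1α (adjusted p = 0.931). Chsy3, a chondroitin synthase, fell with retinoic acid (-1.73, adjusted p = 6.31e-06) and with IL-1α (-0.72, adjusted p = 0.00857). Fam20b, the kinase that phosphorylates the linker xylose, fell too (-0.80 and -0.47), as did Chst10 (-1.0 and -0.60), all 4 differences at an adjusted p under 0.05.

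Of 13 tested genes for sulphate and sugar precursors, 3 rose and 6 fell with retinoic acid (23.1% and 46.2%), and 2 rose and 3 fell with IL-1α (15.4% and 23.1%). Of all genes, 18.6% were higher and 18.1% lower with retinoic acid, and 15.1% and 15.0% with IL-1α. The differences in this list ran from -1.35 to 0.48 with retinoic acid and from -0.78 to 0.60 with IL-1α. The genes named here are therefore not those that fell furthest. Gfpt2, which makes glucosamine phosphate, fell with both (-0.83 and -0.55, adjusted p = 5.87e-05 and 0.00241 from limma). Slc35d2, a transporter of UDP sugars, fell with retinoic acid only among its comparisons with untreated explants (-0.81, adjusted p = 0.000424), with an IL-1α difference of -0.11 (adjusted p = 0.571). Its difference between the treatments was called (-0.70, adjusted p = 0.00143).

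Of 16 tested core proteins that carry the chains, 3 rose and 9 fell with retinoic acid (median -0.66), where 18.6% of all genes were higher and 18.1% lower. With IL-1α 4 rose and 6 fell (median -0.10), where 15.1% of all genes were higher and 15.0% lower. Acan, the core of aggrecan and also one of the chondrocyte markers, fell by 4.22 on the log2 scale with retinoic acid (-4.22, adjusted p = 6.44e-10 from limma) and by 1.56 with IL-1α (-1.56, adjusted p = 1.02e-05). Fmod and Lum, which carry keratan sulphate, fell with retinoic acid by 2.88 and 2.22, and with IL-1α by 0.62 and 0.90. Gpc6, a glypican with heparan sulphate, fell by 1.63 and 0.90. Of 15 tested genes for lysosomal breakdown of the chains, 2 rose and 1 fell with retinoic acid, and 1 rose and 2 fell with IL-1α. Hyal2, a hyaluronidase, rose with retinoic acid (0.64, adjusted p = 0.000717) and fell with IL-1α (-0.39, adjusted p = 0.023). Against untreated explants the differences in this list ran from -0.34 to 0.74 with retinoic acid and from -0.67 to 0.94 with IL-1α. Hyal2 therefore did not move furthest in either of these comparisons. The keratan sulphate backbone was represented by B4galt1 alone, a galactosyltransferase with many other substrates, which rose with both (0.41 and 0.59, adjusted p = 0.025 and 0.00421).

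**Figure D4:**
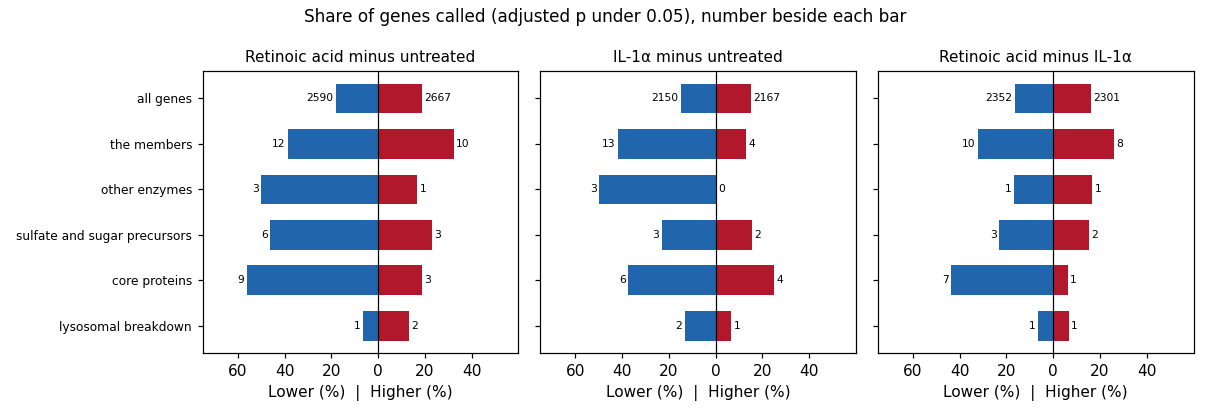
Share of genes called higher (red, right) and lower (blue, left) at an adjusted p under 0.05 in each comparison, in percent of the tested genes of each list, with the number of genes beside each bar. The 31 members have 12 lower and 10 higher with retinoic acid and 13 lower and 4 higher with IL-1α, the 16 core proteins 9 lower and 3 higher with retinoic acid, and the 15 genes of lysosomal breakdown 1 lower and 2 higher.

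The marker lists of other cells were also read. For these counts, the shares of all genes were 18.6% higher and 18.1% lower with retinoic acid, and 15.1% and 15.0% with IL-1α. Between the treatments, 16.4% of all genes were lower with retinoic acid. Of 7 tested white blood cell markers, 4 rose with retinoic acid, and 2 rose and 1 fell with IL-1α, while Ptprc, found on all white blood cells, and Itgam, a marker of myeloid cells, were undetected on all arrays. Their summed level was 13.16 to 13.20 untreated, 12.94 to 13.50 with IL-1α and 13.37 to 13.57 with retinoic acid. Of 7 neutrophil markers, 5 fell with retinoic acid. Of 5 bone markers, 4 fell with each treatment, and of 6 fibroblast markers 4 fell and 1 rose with retinoic acid and 5 fell with IL-1α. Of 3 tested red cell markers, 1 was lower with retinoic acid than with IL-1α, of 2 muscle markers 1 fell with retinoic acid and 2 with IL-1α, and the 1 tested fat marker fell with both. The summed chondrocyte markers were 16.26 to 16.58 untreated, 15.49 to 15.98 with IL-1α and 13.94 to 14.47 with retinoic acid, and the part of these lists in the members' differences was not tested.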

How the data were processed

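RNA of explants was read on 12 Illumina mouse bead arrays. The deposited intensities are non-normalised values per probe on a linear scale, for which the summary software is not given in the sources used here. Beside each the authors deposited a detection score, a fraction between 0 and 1 that the file headers call a p-value but that rises with intensity. With limma 3.58.1 in R 4.3.3, intensities were background-corrected and quantile-normalised (neqc, offset 16, detection p taken as 1 minus the score). A probe entered the tests when its detection p fell under 0.05 on 4 or more arrays, which 18200 of 46632 probes met. As in the study's methods, the linear model held treatment and a 4-level factor of batch and replicate, and p-values were adjusted by Benjamini-Hochberg over all kept probes. Batch differences came from a model of 6 treatment and batch means. Each gene was read by its kept probe of highest mean level, and a two-sided exact permutation test of 8 arrays is given beside some values. The interval given is the 95% confidence interval of the fit. Every array is printed for members with a called change of at least 1 on the log2 scale and, in a step with no such member, for the one with the largest called change. Genes outside the members are at most 4 per list, from those with the largest called changes, and not every such gene is named. The members and lists were chosen with earlier results of these data known. The study's methods name 3 unpooled mice per treatment where the files hold 4 arrays, so the arrays need not be independent animals or cultures. The sample records give 4 hips per well for every array, so an array need not stand for 1 animal. The sources also differ on serum. Scripts were tested on simulated data. The number of arrays limits the precision.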

Additional observations from a re-analysis of the deposited data

Results flagged for a closer look

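In 4 of 93 groups of 4 arrays, 1 array lay far from the other 3, where chance gives about 1 group in 20. They were the lowest retinoic acid array of Chst11 (7.48), the lowest IL-1α array of Chst12 (8.90), and the lowest retinoic acid arrays of Hs3st3a1 (7.32) and Hs3st3b1 (7.11).

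The treatment effect differed between the batches for a few probes at an adjusted p under 0.05 from limma, and batch is also mouse line. For Chst5 the effect in batch 2 minus that in batch 1 was 0.96 for IL-1α against untreated explants and -0.99 for retinoic acid against IL-1α, with the probe undetected on all 4 IL-1α arrays. For Hs6st2, detected on 8 arrays, it was -1.17 for retinoic acid against untreated explants.

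Further probes of 3 members also differed between the batches. For the Hs3st3a1 probe ILMN_1238617, detected on 7 arrays, the batch difference was 2.14 with retinoic acid and 2.03 with IL-1α, both against untreated explants. For the Hs3st3b1 probe ILMN_2491319, detected on 8 arrays, it was 0.95 and 1.13. For the Papss2 probe ILMN_2638349, detected on 10 arrays, it was -0.92 and -1.24, and the IL-1α difference of this probe was -0.16 in batch 1 and -1.40 in batch 2. What sets these apart from the brighter probes of the same genes was not tested.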

How the results depend on the processing

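The signs of all called differences held under the 26 settings tried, of which 12 left out 1 array, and 67 of 2397 recomputed differences had another sign without being called. Of 57 calls, 29 passed under every setting and 44 with any 1 array left out. Without the replicate block, with treatment and batch alone, 10 members were higher and 12 lower with retinoic acid, 5 and 13 with IL-1α, and 8 and 10 between the treatments. With neither replicate block nor batch these were 4 and 10, 0 and 7, and 5 and 6, and calls in Ext1, Glce and Extl3 were among those lost. Over the 12 fits that left out 1 array the counts were 6 to 10 higher and 10 to 12 lower with retinoic acid, 2 to 5 and 10 to 14 with IL-1α, and 7 to 8 and 9 to 10 between the treatments. The replicate numbers were not shown to pair the arrays, since replicate differences correlated between treatments at -0.108 to 0.391. As a random replicate block (correlation 0.0492), the replicates left 1 member with a batch difference in each comparison.

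Members higher with IL-1α fell from 4 to 1 when arrays were scaled to one median, to 2 with no detection filter and to 2 in batch 2 alone. Median scaling also moved the median of all probes for retinoic acid against untreated explants from 0.02 to 0.14, and lost the calls of Extl2 with retinoic acid (-0.35) and of Ugp2 between the treatments. In batch 1 alone the call of Glce between the treatments was lost (-0.51). The members with a batch difference, 1 in each comparison, ranged from 0 to 2 in each over the fits that left out 1 array. For retinoic acid they were 0 with no background correction, with detection on all 12 arrays and with a detection p under 0.01, and 2 with the mean of all probes of a gene. For IL-1α they were 2 with median scaling, no filter or the mean of probes, and 0 with normalisation within each batch or detection on all 12 arrays. Between the treatments they were 5 with median scaling, 3 with an offset of 50 or no filter, 2 with no background correction, the mean of probes or older symbols, and 0 with normalisation within each batch or detection on all 12 arrays. The older symbols and the counts in 1 batch alone were chosen after seeing the data. The cause of these changes was not tested. Probes near the background, such as those of Chst3, Chst7, Ext2 and Hs6st2, have only dim readings on several arrays.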
